A study of Mus musculus with 9 samples.

Results

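Programmed cell death takes several routes, and the 38 genes described here encode proteins of 3 of them: apoptosis, necroptosis and pyroptosis. The genes were taken as a list of symbols, with no threshold on their measured levels. The list was chosen with earlier results of these data known. All 38 were found among the 24964 gene symbols of the count table, and all 38 passed the filter on low counts that left 14347 genes for testing. Expression was measured by bulk RNA sequencing of heart tissue from male C57BL/6JR mice of 8 weeks. Hearts were taken 28 d (n = 3) or 7 d (n = 3) after myocardial infarction (MI), produced by tying off the left anterior descending coronary artery, or after a sham operation without the ligation (n = 3). The labels give neither the day on which sham hearts were taken nor the region of the heart that was used.

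In apoptosis, BH3-only proteins release the pore-forming proteins BAX and BAK from survival proteins of the BCL-2 family, and the pores let cytochrome c, SMAC/DIABLO and AIF leave the mitochondria. Cytochrome c and APAF1 then assemble the apoptosome that activates caspase-9, and death receptors reach the same executioner caspases through FADD and caspase-8. Where caspase-8 is not active, RIPK1 can engage RIPK3, and RIPK3 phosphorylates MLKL, which breaks the plasma membrane in necroptosis. In pyroptosis, inflammasome sensors recruit caspase-1, which cleaves gasdermin D into a pore. All of these routes have been described in the infarcted heart, in muscle cells and in the immune cells that enter the scar.

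Library totals were 15300344 to 15770389 counts at 28 d, 18355720 to 19238101 at 7 d and 12351525 to 13629120 in sham hearts. Levels are given as CPM, read counts scaled to the TMM-adjusted library total, differences as edgeR log2 fold changes ± standard error, and a gene rose or fell where its edgeR adjusted p was under 0.05. The coefficient of variation between replicates that edgeR estimated was 24.1% at 28 d, 17% at 7 d and 2.77% in sham hearts. The 3 infarct libraries MI 28 d replicates 1 and 3 and MI 7 d replicate 3 held over 100 CPM of the adipocyte gene Adipoq, against 0.423 to 3.12 CPM in the other 6. Summed levels of 8 cardiomyocyte markers were 31791 to 59391 CPM at 28 d, 12851 to 16520 CPM at 7 d and 104430 to 108570 CPM in sham hearts. The sums of 8 macrophage markers were 896 to 1390 CPM at 28 d, 4372 to 5372 CPM at 7 d and 501 to 568 CPM in sham hearts. Those of 8 fibroblast markers were 5332 to 10641 CPM at 28 d, 28580 to 36753 CPM at 7 d and 2022 to 2072 CPM in sham hearts. Every marker of these 3 lists was detected in every library. The sums of 8 neutrophil markers, of which 3 were at 0 in at least 1 library, were 9.49 to 10.9 CPM at 28 d, 52 to 100.02 CPM at 7 d and 8.64 to 11.6 CPM in sham hearts. In bulk tissue, fewer cells of a type and less RNA per cell cannot be told apart. The p-values measure the spread between these libraries only. Each gene has 1 estimate of spread from all 9 libraries, so tests between the infarct times also draw on the sham libraries.

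At 7 d after infarction most of the cell death genes were above sham level. Of the 38 genes 29 rose (76.3%) and 5 fell (13.2%), while 39.0% of all tested genes rose and 35.4% fell. The median log2 fold change was 1.05 over the 38 genes and 0.06 over all tested genes. At 28 d against sham 21 rose (55.3%) and 5 fell (13.2%), with 29.5% and 25.6% of all tested genes, and the medians were 0.45 and 0.05. In the direct comparison of 28 d with 7 d, 7 genes were higher (18.4%) and 22 lower (57.9%), against 29.1% and 26.1% of all tested genes, with medians of -0.63 and 0.03. With the 3 sham libraries summed to 1 library, fewer of the 38 genes and fewer of all genes rose at 28 d, with medians of 0.41 and 0.04. Without the 3 libraries rich in Adipoq, which leaves 1 library at 28 d and 2 at 7 d, 29 genes rose and 5 fell at 7 d, 18 rose and 4 fell at 28 d, and 7 were higher and 21 lower at 28 d than at 7 d. In that setting 40% of all genes rose and 35.9% fell at 7 d, 24.6% rose and 23.6% fell at 28 d, and 23.8% were higher and 24.1% lower between the times. The calls that ended without these libraries were those of Mcl1 (0.15), Bad (0.26), Cflar (0.17) and Fadd (-0.20) at 28 d against sham and of Bak1 (-0.36), Birc2 (0.24), Casp2 (-0.36) and Nlrc4 (-0.85) between the times. The genes that fell below sham encode mitochondrial death factors (Diablo, Aifm1), an adaptor (Fadd) and some BH3-only proteins (Bik and Bnip3 at 7 d, Bik and Bcl2l11 at 28 d).

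**Figure D1:**
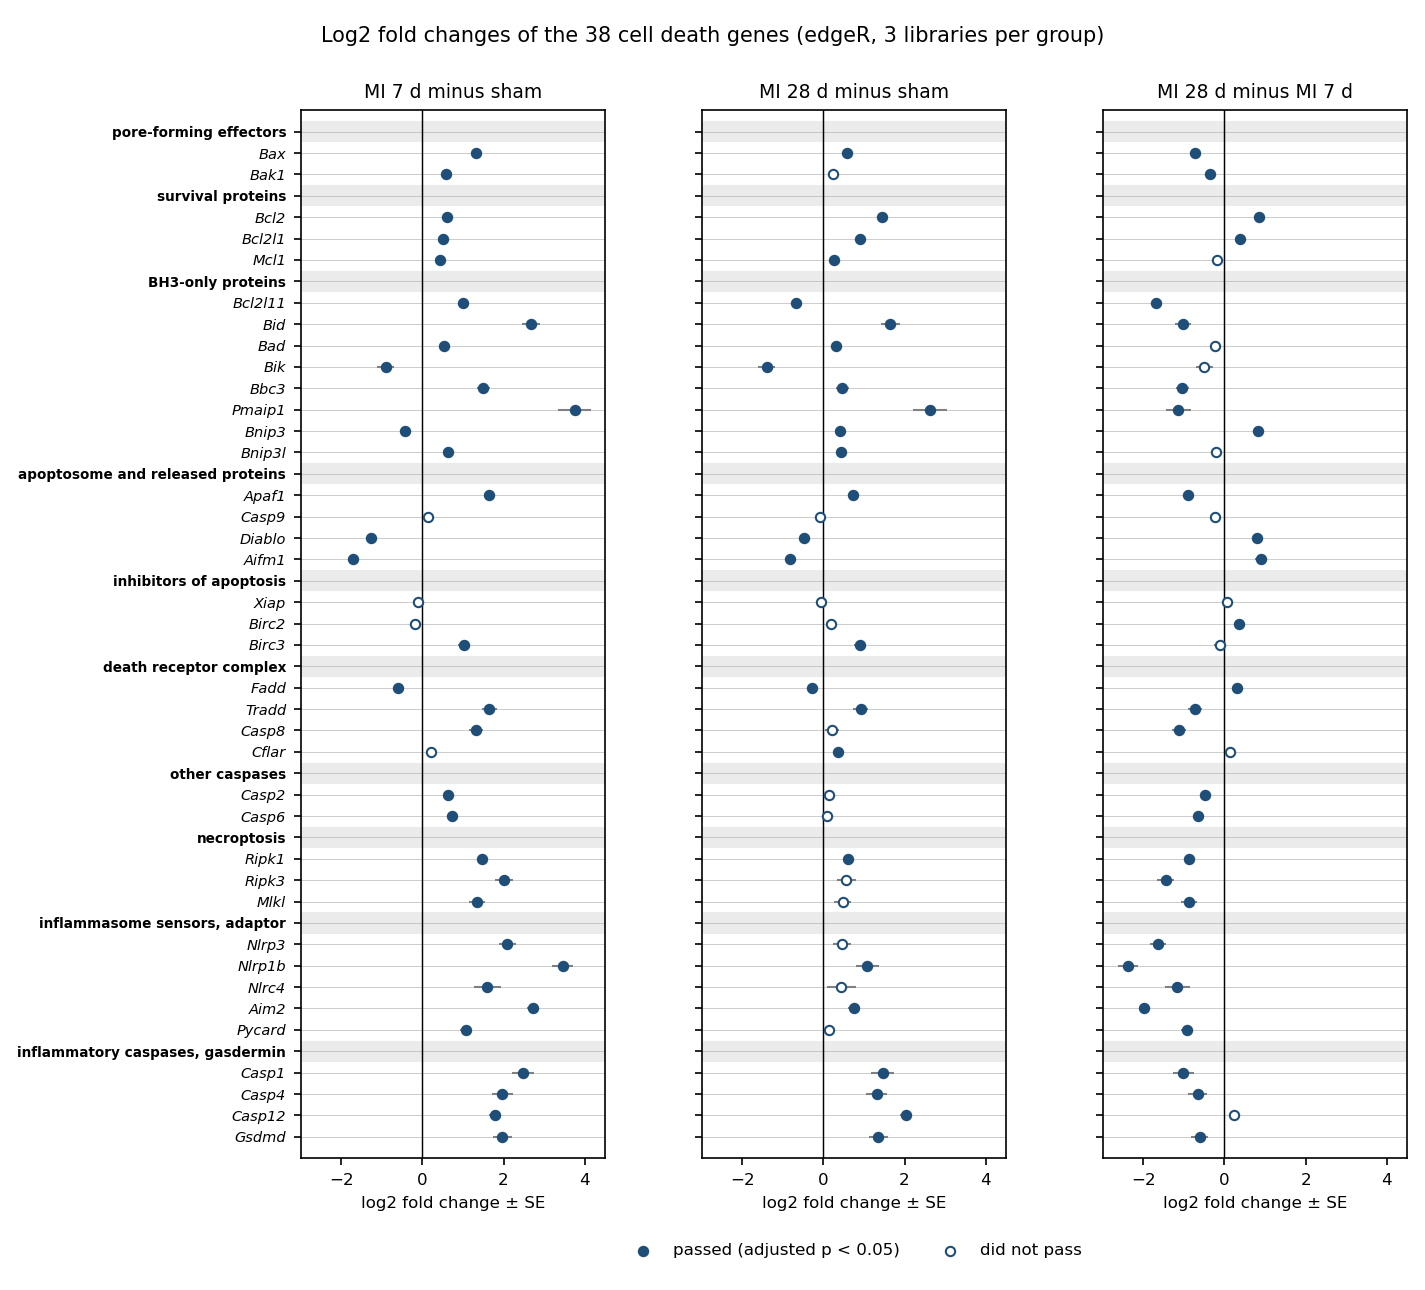
Log2 fold changes (points) with their standard errors (lines) of the 38 genes, grouped by role, for MI 7 d minus sham, MI 28 d minus sham and MI 28 d minus MI 7 d. Filled points passed the edgeR threshold. The inflammasome, necroptosis and caspase-1 genes lie right of 0 at 7 d and left of 0 in the panel of 28 d minus 7 d, while Diablo and Aifm1 show the mirror pattern.

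Both pore-forming effectors rose at 7 d, as did 39.0% of all tested genes. Bax had 29.9, 30.6 and 33.2 CPM at 28 d, 58.4, 49.4 and 48.6 CPM at 7 d and 21.6, 20.5 and 20 CPM in sham hearts. The 3 groups did not overlap, with the 7 d hearts highest and sham hearts lowest. The log2 fold change was 1.33 ± 0.094 at 7 d against sham (edgeR adjusted p = 1.21e-06), 0.59 ± 0.094 at 28 d against sham (edgeR adjusted p = 0.00069) and -0.74 ± 0.09 at 28 d against 7 d. Bak1, which encodes the partner pore protein, had 46.7, 47.1 and 41.4 CPM at 28 d, 64.9, 55.2 and 53.2 CPM at 7 d and 35.9, 42.5 and 36.8 CPM in sham hearts. The 7 d hearts again stood above both other groups, whose values overlapped. Bak1 rose at 7 d (0.59 ± 0.10, edgeR adjusted p = 0.000526) and was lower at 28 d than at 7 d (-0.36 ± 0.10, edgeR adjusted p = 0.0139), a call that ended without MI 7 d replicate 1 (-0.27, edgeR adjusted p = 0.0501). Its difference of 0.23 ± 0.10 at 28 d against sham did not pass, but did without MI 28 d replicate 3 (0.29). Exons of Bak1 overlap those of Ggnbp1 on the opposite strand, and reads were counted with a strand setting that is not stated.

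The survival genes stood higher after infarction, and for Bcl2 and Bcl2l1 the later hearts were the higher ones. Bcl2, the founding survival gene of the family, had 57.3, 56.6 and 47.4 CPM at 28 d, 29.8, 30 and 29.7 CPM at 7 d and 23.6, 18.9 and 16.7 CPM in sham hearts. The groups did not overlap and were ordered with 28 d highest, then 7 d, then sham. Its log2 fold change was 0.60 ± 0.13 at 7 d (edgeR adjusted p = 0.00172) and 1.45 ± 0.13 at 28 d against sham (edgeR adjusted p = 3.62e-05), and 0.85 ± 0.12 at 28 d against 7 d (edgeR adjusted p = 0.000309). Bcl2l1, which encodes BCL-XL, had 65.1, 58.3 and 62.4 CPM at 28 d, 45.5, 46.2 and 49.6 CPM at 7 d and 34.9, 32.4 and 32.8 CPM in sham hearts. Its 3 groups had the same order without overlap, with log2 fold changes of 0.50 ± 0.074 at 7 d and 0.89 ± 0.074 at 28 d against sham and 0.39 ± 0.072 between the times, all past the threshold. Mcl1, which encodes a short-lived survival protein that heart muscle depends on, had 327, 282 and 294 CPM at 28 d, 338, 347 and 336 CPM at 7 d and 247, 255 and 254 CPM in sham hearts. Both infarct groups lay above sham hearts, and Mcl1 rose by 0.44 ± 0.081 at 7 d and 0.26 ± 0.081 at 28 d. The 28 d call of Mcl1 ended without any 1 of the 3 sham libraries or without MI 28 d replicate 1 (0.19 to 0.26), and without the libraries rich in Adipoq (0.15). The lower level at 28 d than at 7 d (-0.18 ± 0.081) did not pass, but did without MI 28 d replicate 1 (-0.24) and without the libraries rich in Adipoq (-0.28). Per kilobase of exon, Mcl1 was the most abundant of the 38 genes in all 3 groups, with 88.1 ± 6.8 at 28 d, 99.5 ± 1.66 at 7 d and 73.6 ± 1.28 CPM per kilobase in sham hearts.

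Because Bax and Bcl2 moved by different amounts at the 2 times, their read counts were set against each other within each library. There were 0.521, 0.541 and 0.701 Bax counts per Bcl2 count at 28 d, 1.96, 1.65 and 1.63 at 7 d and 0.919, 1.09 and 1.20 in sham hearts. The ratio was highest in the 7 d hearts and lowest in the 28 d hearts, with no overlap between groups, and is unaffected by library scaling. It is not adjusted for the different transcript lengths, so only its change between libraries can be read. Bcl2l1 counts per Bcl2 count were 1.14, 1.03 and 1.32 at 28 d, 1.53, 1.54 and 1.67 at 7 d and 1.48, 1.72 and 1.96 in sham hearts, where the 7 d and sham hearts overlapped. These ratios are given as descriptions without a test.

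**Figure D2:**
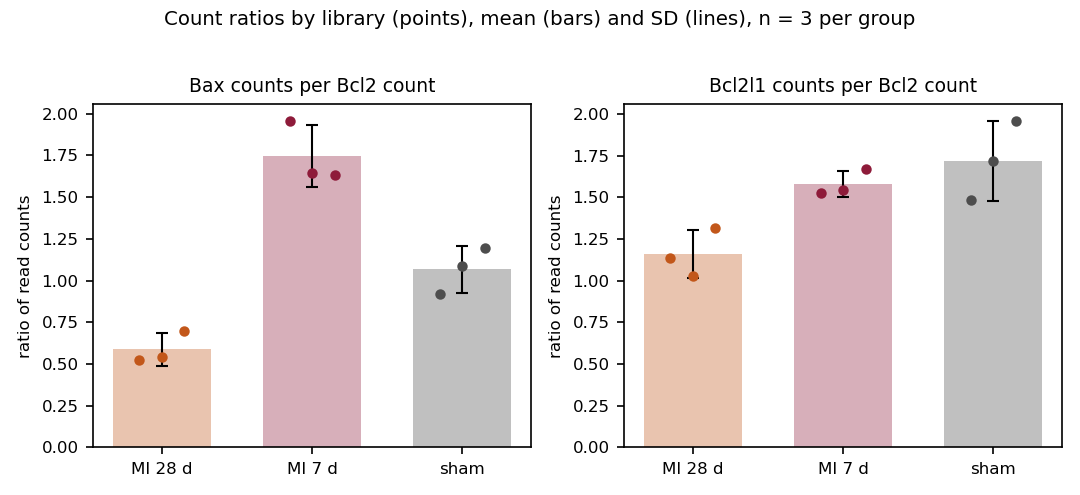
Ratio of Bax to Bcl2 read counts (left) and of Bcl2l1 to Bcl2 read counts (right) in each library, shown as points, with the group mean as a bar and the SD as a line (n = 3 per group). The Bax ratio lies between 0.521 and 0.701 at 28 d, between 1.63 and 1.96 at 7 d and between 0.919 and 1.20 in sham hearts.

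BH3-only genes, whose products sense damage and stress, did not move as a block. Of the 8 genes 6 rose and 2 fell (Bik and Bnip3) at 7 d against sham, and 6 rose and 2 fell (Bik and Bcl2l11) at 28 d. These are 75% and 25% at each time. Among all tested genes 39.0% rose and 35.4% fell at 7 d, and 29.5% rose and 25.6% fell at 28 d. Pmaip1, which encodes the p53 target NOXA, had 2.32, 2.48 and 2.9 CPM at 28 d, 6.06, 6.24 and 4.72 CPM at 7 d and 0.523, 0.644 and 0.0845 CPM in sham hearts. Sham levels rest on few reads (6, 7 and 1 counts), and the groups did not overlap. Pmaip1 showed the largest rise of the 38 genes at each time, 3.76 ± 0.41 at 7 d (edgeR adjusted p = 1.93e-05) and 2.62 ± 0.42 at 28 d (edgeR adjusted p = 0.000768). It was lower at 28 d than at 7 d (-1.14 ± 0.31), which did not pass with limma-voom (adjusted p = 0.0515). Bid, which encodes the link from caspase-8 to the mitochondrial pore, had 5.91, 5.21 and 6.95 CPM at 28 d, 12.9, 11.1 and 12.8 CPM at 7 d and 1.66, 2.67 and 1.44 CPM in sham hearts. Its groups did not overlap, and Bid rose by 2.68 ± 0.23 at 7 d (edgeR adjusted p = 3.58e-06) and 1.65 ± 0.23 at 28 d. Of Bid's exon bases 17.7% are shared with Bcl2l13 on the opposite strand, whose reads cannot be told apart without strand, and Bcl2l13 itself fell at 7 d (-1.51) and at 28 d (-0.60).

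Bbc3, the gene of the p53 target PUMA, had 4.84, 6.27 and 5.74 CPM at 28 d, 11.7, 11.2 and 11.6 CPM at 7 d and 4.71, 3.95 and 3.55 CPM in sham hearts. The 7 d hearts stood apart from both other groups, and Bbc3 rose by 1.5 ± 0.16 at 7 d (edgeR adjusted p = 1.37e-05) and was lower at 28 d than at 7 d (-1.04 ± 0.15). Its smaller rise at 28 d against sham (0.46 ± 0.16) ended without sham replicate 2 or 3 or MI 28 d replicate 2 or 3 (0.36 to 0.45). That rise also did not pass with DESeq2 (0.43) or limma-voom (0.46). Bik, whose product resides at the endoplasmic reticulum, had 2.65, 3.85 and 2.26 CPM at 28 d, 4.62, 3.76 and 3.99 CPM at 7 d and 6.98, 8.28 and 7.94 CPM in sham hearts. All 6 infarct hearts were below all sham hearts, and Bik fell by 0.90 ± 0.21 at 7 d (edgeR adjusted p = 0.00275) and by 1.40 ± 0.21 at 28 d (edgeR adjusted p = 0.000554). Between the times Bik did not pass (-0.50 ± 0.21), but did without MI 28 d replicate 2 (-0.75). Bcl2l11, which encodes BIM, had 13.1, 13.8 and 15.8 CPM at 28 d, 40.5, 49.2 and 46.8 CPM at 7 d and 22.3, 23.9 and 22.3 CPM in sham hearts. Its values did not overlap between groups, and they stood above sham at 7 d and below sham at 28 d. Bcl2l11 rose at 7 d (0.99 ± 0.10, edgeR adjusted p = 1.38e-05) and fell at 28 d (-0.68 ± 0.11, edgeR adjusted p = 0.000601), and the direct difference of 28 d against 7 d was -1.68 ± 0.10 (edgeR adjusted p = 2.98e-06).

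Bnip3, a hypoxia-inducible gene whose product drives mitochondrial removal and death of heart muscle cells, showed the opposite order. It had 207, 192 and 175 CPM at 28 d, 103, 95.4 and 128 CPM at 7 d and 147, 145 and 143 CPM in sham hearts. The 7 d hearts lay below and the 28 d hearts above the sham hearts, without overlap. Bnip3 fell at 7 d (-0.42 ± 0.11, edgeR adjusted p = 0.00735) and rose at 28 d (0.40 ± 0.11, edgeR adjusted p = 0.0143), with a difference of 0.82 ± 0.11 between the times. The fall at 7 d was lost when library totals alone set the scale (-0.08, edgeR adjusted p = 0.515), a scaling that moves the median of all genes by 0.33 at 7 d. The rise at 28 d ended without sham replicate 2 or 3 (0.37 to 0.38). Its close relative Bnip3l, which encodes the mitophagy receptor NIX, had 92.6 to 111 CPM at 28 d, 111 to 123 CPM at 7 d and 70.1 to 76.8 CPM in sham hearts and rose at 7 d (0.64 ± 0.087) and at 28 d (0.42 ± 0.087). Between the times Bnip3l differed by -0.21 ± 0.086, which did not pass, but did without MI 28 d replicate 3 (-0.29) and without the libraries rich in Adipoq (-0.28). Per kilobase of exon, Bnip3 was the second most abundant of the 38 genes in all 3 groups, with 84.3 ± 7.05 at 28 d, 47.9 ± 7.49 at 7 d and 64 ± 0.954 CPM per kilobase in sham hearts. Bad, which survival kinases hold inactive, had 18 to 19 CPM at 28 d, 19 to 22.9 CPM at 7 d and 14.4 to 15.7 CPM in sham hearts and rose by 0.53 ± 0.099 at 7 d. Its 28 d rise of 0.30 ± 0.1 ended without sham replicate 1 or 3 or MI 28 d replicate 1 or 2 (0.27 to 0.32), and its difference between the times (-0.23 ± 0.097) passed without MI 7 d replicate 2 (-0.31). With DESeq2 the 28 d rise of Bad did not pass (0.27). Exons of Bad share 20.5% of their bases with Gpr137 on the opposite strand.

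The stretch of 250 bases upstream of Bnip3 is shown because this gene is a known target of hypoxia-inducible factors, whose binding sites hold the letters ACGTG. It was taken from RefSeq for GRCm38.p6 (chr7:138909507-138909756, minus strand), written 5′ to 3′, with ACGTG on either strand in capitals.
Bnip3: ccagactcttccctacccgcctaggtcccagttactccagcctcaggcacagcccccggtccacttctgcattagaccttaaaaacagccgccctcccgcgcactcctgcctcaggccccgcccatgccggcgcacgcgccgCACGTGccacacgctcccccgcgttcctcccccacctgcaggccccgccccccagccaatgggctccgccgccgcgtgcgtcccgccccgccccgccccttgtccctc
The capitals are a palindrome that holds ACGTG on both strands, 108 and 107 bases upstream of the annotated start, and it is also the core of an E-box. Of 33 members with a RefSeq upstream sequence, 11 (Bax, Bbc3, Bnip3, Apaf1, Xiap, Fadd, Cflar, Casp6, Ripk3, Nlrp3 and Casp1) hold ACGTG in the whole RefSeq stretch of 300 bases, which runs on past the start, against 21.8% of all 27025 genes in the same table and stretch. The match describes the sequence only.

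**Figure D3:**
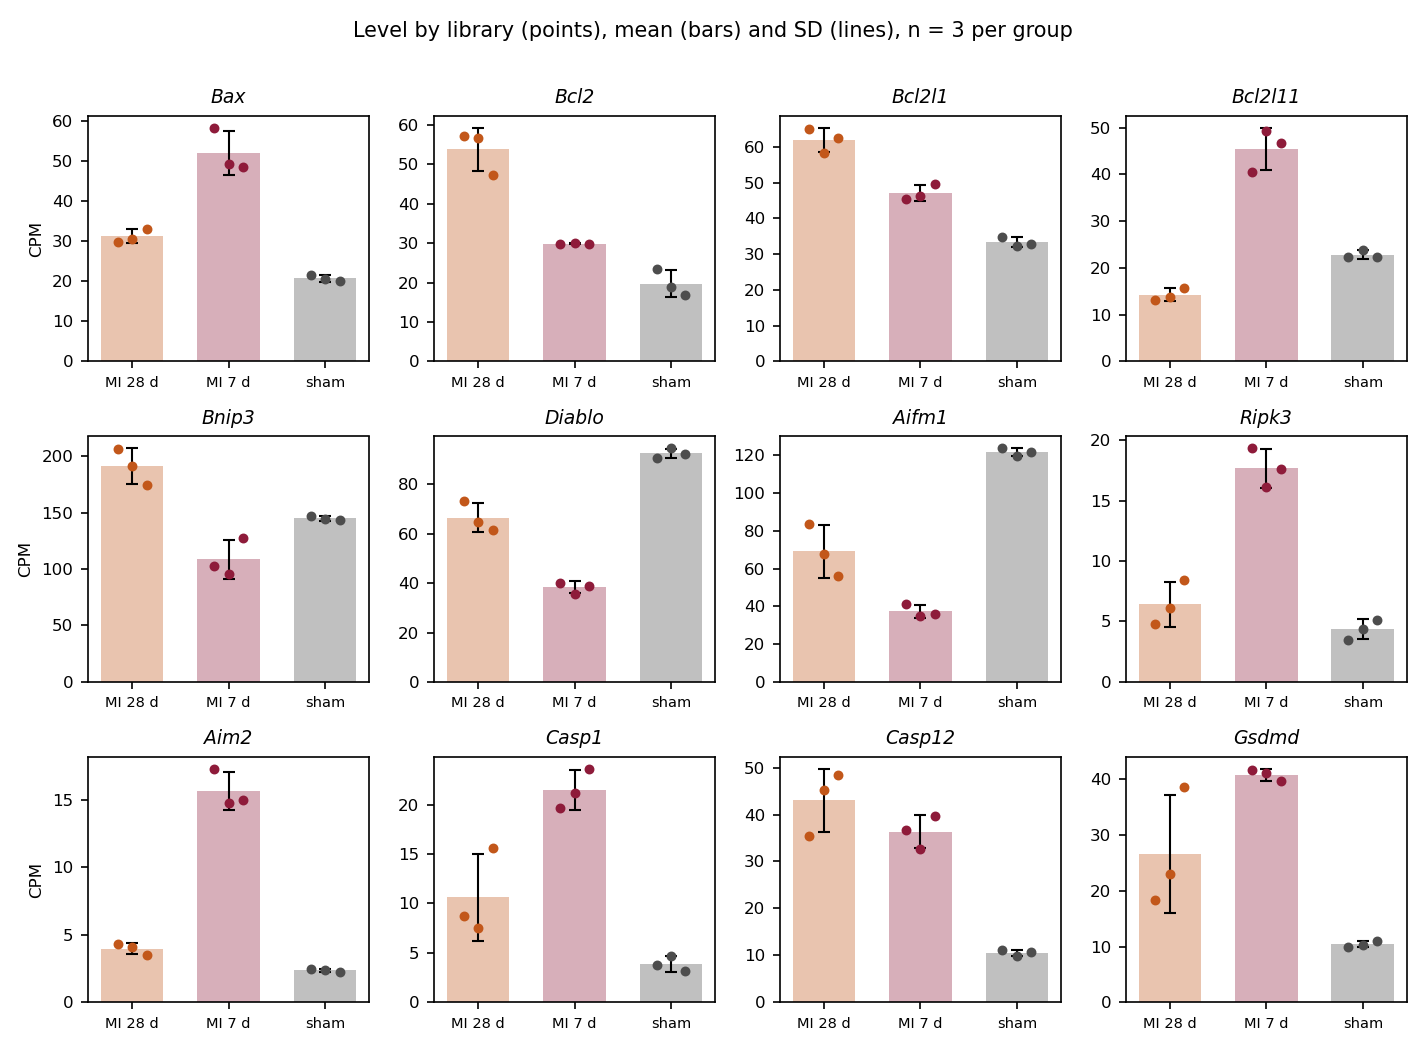
Level in CPM of 12 of the 38 genes in each library (points), with the group mean (bars) and SD (lines), n = 3 per group. Bcl2 and Bcl2l1 are highest at 28 d, Bcl2l11 is highest at 7 d and lowest at 28 d, Bnip3 is lowest at 7 d, Diablo and Aifm1 are highest in sham hearts, and the library with the highest Gsdmd and Casp1 at 28 d is replicate 3.

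Of the 4 members acting downstream of the mitochondrial pore, Apaf1 rose, Casp9 passed in no comparison, and Diablo and Aifm1 fell below sham. Apaf1, the scaffold of the apoptosome, had 18.4, 19.9 and 25 CPM at 28 d, 36.8, 42.7 and 39.4 CPM at 7 d and 13.2, 12.2 and 12.9 CPM in sham hearts. The groups did not overlap, and Apaf1 rose by 1.63 ± 0.12 at 7 d (edgeR adjusted p = 1.8e-06) and 0.72 ± 0.12 at 28 d (edgeR adjusted p = 0.00103). Casp9, the caspase it activates, had 18.8, 20.6 and 20.3 CPM at 28 d, 21.1, 25 and 24.2 CPM at 7 d and 23.6, 19.1 and 21 CPM in sham hearts. It passed in no comparison, with log2 fold changes of 0.14 ± 0.11 at 7 d and -0.09 ± 0.11 at 28 d against sham. At 28 d against 7 d it differed by -0.23 ± 0.11, which passed without MI 7 d replicate 1 (-0.30). Diablo, whose product is released from mitochondria and blocks XIAP, had 73.2, 64.8 and 61.6 CPM at 28 d, 40.2, 35.7 and 39 CPM at 7 d and 90.8, 94.6 and 92.1 CPM in sham hearts. Sham hearts were highest and 7 d hearts lowest, without overlap. Diablo fell by 1.27 ± 0.082 at 7 d (edgeR adjusted p = 8e-07) and by 0.48 ± 0.081 at 28 d (edgeR adjusted p = 0.00101), and was higher by 0.80 ± 0.082 at 28 d than at 7 d. Aifm1 encodes AIF, a flavoprotein needed for respiratory complex assembly that can also carry a death signal to the nucleus. Aifm1 had 83.4, 67.9 and 55.9 CPM at 28 d, 41.1, 35 and 35.8 CPM at 7 d and 124, 119.8 and 122 CPM in sham hearts.

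Aifm1 values kept the same order as those of Diablo without overlap, and Aifm1 showed the deepest fall of the 38 genes at 7 d (-1.71 ± 0.13, edgeR adjusted p = 2.24e-06). At 28 d it fell by 0.82 ± 0.13 against sham (edgeR adjusted p = 0.000726), and it was higher at 28 d than at 7 d (0.89 ± 0.13). Per kilobase of exon Aifm1 ranked 6 among the 38 genes at 28 d, 11 at 7 d and 3 in sham hearts. Levels of Diablo and Aifm1 moved with the cardiomyocyte markers, of which 8 of 8 fell at 7 d, 7 of 8 fell at 28 d and 8 of 8 were higher at 28 d than at 7 d. The same calls held for 35.4%, 25.6% and 29.1% of all tested genes. Within the 28 d group the cardiomyocyte sum, Diablo and Aifm1 were all highest in replicate 1 and lowest in replicate 3. The part of muscle content in these falls was not tested.

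Among the inhibitors of apoptosis, ubiquitin ligases that hold caspases and RIPK1 in check, Birc3 rose. Birc3, an NF-kappaB target that encodes cIAP2, had 21.6, 23.2 and 29.9 CPM at 28 d, 27.6, 25.7 and 27.5 CPM at 7 d and 13.5, 15.1 and 11.2 CPM in sham hearts. All 6 infarct hearts lay above the sham hearts, and Birc3 rose by 1.02 ± 0.15 at 7 d (edgeR adjusted p = 0.000132) and 0.91 ± 0.15 at 28 d (edgeR adjusted p = 0.000764). Between the times Birc3 values overlapped and their difference (-0.11 ± 0.14) did not pass. Birc2, its neighbour on chromosome 9 that encodes cIAP1, had 36.5, 40.8 and 52.3 CPM at 28 d, 33.6, 35.2 and 31.8 CPM at 7 d and 38.1, 36.6 and 38.5 CPM in sham hearts. It did not pass against sham (-0.17 ± 0.12 at 7 d and 0.19 ± 0.12 at 28 d), although the 28 d difference passed without MI 28 d replicate 1 (0.29). Birc2 was higher at 28 d than at 7 d (0.36 ± 0.12, edgeR adjusted p = 0.0279), a call that ended without MI 7 d replicate 1 or 3 or MI 28 d replicate 3 (0.21 to 0.37). Xiap, which encodes the direct caspase inhibitor that DIABLO displaces, had 64.9, 70.3 and 75.3 CPM at 28 d, 56.7, 75.7 and 69.3 CPM at 7 d and 72.9, 73.4 and 72.7 CPM in sham hearts. The groups overlapped, and Xiap passed in no comparison, with -0.12 ± 0.10 at 7 d, -0.06 ± 0.11 at 28 d against sham and 0.06 ± 0.10 between the times. The sign of the Xiap differences turned when library totals alone set the scale.

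The death receptor complex was mixed. Tradd, the adaptor of the TNF receptor, had 5.97, 6.27 and 8.86 CPM at 28 d, 12.9, 11.3 and 10.8 CPM at 7 d and 3.84, 3.77 and 3.55 CPM in sham hearts. The groups did not overlap, and Tradd rose by 1.65 ± 0.18 at 7 d (edgeR adjusted p = 1.91e-05) and 0.92 ± 0.18 at 28 d (edgeR adjusted p = 0.00222). Casp8, the initiator caspase of this route, had 16.9, 16.7 and 26.3 CPM at 28 d, 44.9, 39.1 and 45.9 CPM at 7 d and 16.9, 19 and 16.1 CPM in sham hearts. The 7 d hearts stood above both other groups. Casp8 rose by 1.32 ± 0.17 at 7 d (edgeR adjusted p = 7.24e-05), was lower at 28 d than at 7 d (-1.11 ± 0.17) and did not pass at 28 d against sham (0.20 ± 0.17), where its sign turned without MI 28 d replicate 3 (-0.05). Fadd, the adaptor between death receptors and caspase-8, had 21.9, 24.4 and 22.1 CPM at 28 d, 19.3, 18.7 and 17.2 CPM at 7 d and 26.7, 28.2 and 28.3 CPM in sham hearts. It was highest in sham hearts and lowest at 7 d without overlap, and fell by 0.59 ± 0.086 at 7 d (edgeR adjusted p = 0.000146). Its smaller fall at 28 d (-0.28 ± 0.085) was lost with library totals alone (-0.04) and without sham replicate 3 (-0.28, edgeR adjusted p = 0.0506). The Fadd difference between the times was 0.31 ± 0.085. It did not pass with library totals alone (0.22) or with sham libraries left out of the fit (0.27). Cflar, which encodes the caspase-8 inhibitor FLIP, had 66, 60.5 and 76.8 CPM at 28 d, 52.6, 65.7 and 66.8 CPM at 7 d and 54, 53.6 and 52.1 CPM in sham hearts. Cflar did not pass at 7 d (0.21 ± 0.11), but did without MI 7 d replicate 1 (0.32), with limma-voom (0.21) and with library totals alone (0.55). It rose at 28 d (0.35 ± 0.11, edgeR adjusted p = 0.0254). That rise ended without any 1 sham library or without MI 28 d replicate 3 (0.25 to 0.35), and without the libraries rich in Adipoq (0.17), and the times differed by 0.13 ± 0.11, which did not pass.

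The remaining caspases both rose at 7 d, as did 39.0% of all tested genes. Casp2, an initiator caspase of the response to DNA damage, had 21, 21.1 and 18.1 CPM at 28 d, 24.8, 29.1 and 30.6 CPM at 7 d and 15.9, 18.5 and 20.1 CPM in sham hearts. Casp6, an executioner caspase that cleaves lamins, had 11.9, 12.2 and 15.1 CPM at 28 d, 20.5, 19.6 and 21.3 CPM at 7 d and 11.1, 12.1 and 13.5 CPM in sham hearts. For both genes the 7 d hearts lay above all others, and the 28 d and sham hearts overlapped. Casp2 rose by 0.63 ± 0.12 and Casp6 by 0.74 ± 0.12 at 7 d, and at 28 d against sham neither passed (0.14 ± 0.12 for Casp2 and 0.10 ± 0.12 for Casp6). Both were lower at 28 d than at 7 d, with -0.49 ± 0.12 for Casp2, which did not pass without the libraries rich in Adipoq (-0.36), and -0.65 ± 0.12 for Casp6. Without MI 28 d replicate 3 the small 28 d difference of Casp6 from sham was -0.02.

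All 3 necroptosis genes rose at 7 d, against 39.0% of all tested genes. All 3 were lower at 28 d than at 7 d, against 26.1%. Ripk1, the kinase shared by survival, apoptosis and necroptosis signalling, had 27.2, 26.1 and 32.2 CPM at 28 d, 50.2, 52.2 and 53.5 CPM at 7 d and 18.6, 17.9 and 19.7 CPM in sham hearts. Its 3 groups did not overlap, with log2 fold changes of 1.47 ± 0.095 at 7 d (edgeR adjusted p = 7.8e-07) and 0.60 ± 0.095 at 28 d against sham (edgeR adjusted p = 0.000658), and -0.87 ± 0.091 between the times. Ripk3, which activates MLKL, had 4.78, 6.08 and 8.46 CPM at 28 d, 19.3, 16.1 and 17.6 CPM at 7 d and 3.49, 4.41 and 5.15 CPM in sham hearts. The 7 d hearts stood well above the rest, while 28 d and sham hearts overlapped. Ripk3 rose 4.05-fold at 7 d (log2 fold change 2.02 ± 0.22, edgeR adjusted p = 2.03e-05) and was lower at 28 d than at 7 d (-1.45 ± 0.21). At 28 d against sham Ripk3 missed the threshold (0.57 ± 0.23, edgeR adjusted p = 0.0559) and passed without MI 28 d replicate 1 (0.73). Mlkl, which encodes the membrane-breaking effector, had 7.7, 6.45 and 10.4 CPM at 28 d, 15, 13.6 and 16.5 CPM at 7 d and 5.67, 4.87 and 7.1 CPM in sham hearts. Highest were the 7 d hearts, and 28 d and sham hearts overlapped. Mlkl rose by 1.35 ± 0.20 at 7 d, was lower at 28 d than at 7 d (-0.87 ± 0.19), and did not pass at 28 d against sham (0.47 ± 0.20). That difference passed without MI 28 d replicate 2 (0.62) and with library totals alone (0.73).

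All 5 inflammasome genes rose at 7 d, against 39.0% of all tested genes. All 5 were lower at 28 d than at 7 d, against 26.1%. Against sham, 2 of the 5 (40%) rose at 28 d, where 29.5% of all tested genes did. Nlrp1b, a sensor of protease activity, had 1.99, 2.92 and 2.9 CPM at 28 d, 13.5, 14.5 and 12.8 CPM at 7 d and 0.698, 1.47 and 1.52 CPM in sham hearts. The 7 d hearts lay far above the others, and the 28 d hearts above the sham hearts. Nlrp1b rose 11-fold at 7 d (log2 fold change 3.46 ± 0.26, edgeR adjusted p = 1.94e-06) and by 1.08 ± 0.28 at 28 d, and was lower at 28 d than at 7 d (-2.38 ± 0.24). Reads of Nlrp1b can be shared with its paralogue Nlrp1a, so its level is uncertain. Its sham levels rest on few reads (8, 16 and 18 counts). Aim2, the sensor of cytosolic DNA, had 4.31, 4.09 and 3.53 CPM at 28 d, 17.3, 14.8 and 15 CPM at 7 d and 2.44, 2.39 and 2.28 CPM in sham hearts. All 3 groups were apart, and Aim2 rose 6.6-fold at 7 d (2.72 ± 0.15, edgeR adjusted p = 2.93e-07) and by 0.74 ± 0.15 at 28 d (edgeR adjusted p = 0.00258), with -1.98 ± 0.14 between the times.

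Nlrp3, the sensor of membrane damage and ion loss, had 1.46, 2.05 and 1.45 CPM at 28 d, 4.62, 5.35 and 5.53 CPM at 7 d and 1.13, 1.29 and 1.18 CPM in sham hearts. It rose by 2.10 ± 0.22 at 7 d (edgeR adjusted p = 1.41e-05) and did not pass at 28 d against sham (0.46 ± 0.23), although every 28 d heart was above every sham heart. Nlrp3 was lower at 28 d than at 7 d (-1.64 ± 0.20). Nlrc4, which joins the sensors of bacterial flagellin, had 0.796, 1.74 and 1.74 CPM at 28 d, 2.41, 3.86 and 3.37 CPM at 7 d and 0.96, 1.2 and 1.01 CPM in sham hearts. It rested on the fewest reads per kilobase of the 38 genes at 28 d and at 7 d, rose by 1.60 ± 0.34 at 7 d, and did not pass at 28 d (0.44 ± 0.35). It was lower at 28 d than at 7 d (-1.16 ± 0.31, edgeR adjusted p = 0.0108), but not past the threshold without the libraries rich in Adipoq (-0.85). Pycard, the adaptor ASC through which most sensors reach caspase-1, had 7.63 to 11 CPM at 28 d, 17.5 to 20 CPM at 7 d and 7.76 to 9.46 CPM in sham hearts. Pycard rose by 1.08 ± 0.15 at 7 d (edgeR adjusted p = 0.000124), was lower at 28 d than at 7 d (-0.94 ± 0.15), and differed from sham by 0.14 ± 0.16 at 28 d, where the groups overlapped.

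All 4 inflammatory caspase and gasdermin genes rose at 7 d, and all 4 rose at 28 d against sham. Shares of all tested genes that rose were 39.0% at 7 d and 29.5% at 28 d. Casp1, which cleaves gasdermin D and the precursors of interleukin-1beta and interleukin-18, had 8.69, 7.51 and 15.6 CPM at 28 d, 19.7, 21.1 and 23.6 CPM at 7 d and 3.75, 4.69 and 3.13 CPM in sham hearts. Every infarct heart was above every sham heart. Casp1 rose 5.57-fold at 7 d (2.48 ± 0.28, edgeR adjusted p = 2.48e-05) and 2.76-fold at 28 d (1.47 ± 0.28, edgeR adjusted p = 0.00191), and was lower at 28 d than at 7 d (-1.01 ± 0.25). Casp4, the mouse caspase-11 that binds lipopolysaccharide inside the cell, had 7.37, 11.8 and 15.9 CPM at 28 d, 22.2, 15.7 and 17.6 CPM at 7 d and 4.54, 4.87 and 4.73 CPM in sham hearts. It rose by 1.97 ± 0.26 at 7 d and 1.31 ± 0.26 at 28 d against sham, and infarct and sham hearts did not overlap. Values at 28 d and 7 d overlapped, and the lower level at 28 d (-0.66 ± 0.24, edgeR adjusted p = 0.0403) ended without any 1 sham library, MI 7 d replicate 1 or 3, or MI 28 d replicate 1 or 2 (-0.70 to -0.42).

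Gsdmd, which encodes the pore-forming gasdermin D, had 18.3, 23 and 38.5 CPM at 28 d, 41.7, 41.2 and 39.6 CPM at 7 d and 9.95, 10.3 and 11 CPM in sham hearts. It rose 3.92-fold at 7 d (1.97 ± 0.24, edgeR adjusted p = 3.81e-05) and by 1.36 ± 0.24 at 28 d (edgeR adjusted p = 0.00112). The 28 d hearts were spread, with replicate 3 close to the 7 d level. The lower level at 28 d than at 7 d (-0.61 ± 0.22, edgeR adjusted p = 0.0371) ended when any 1 library other than MI 28 d replicate 3 was left out (-0.64 to -0.41). Casp12, a caspase of the endoplasmic reticulum that lies beside Casp1 and Casp4, had 35.4, 45.2 and 48.4 CPM at 28 d, 36.7, 32.6 and 39.7 CPM at 7 d and 11.1, 9.84 and 10.7 CPM in sham hearts. It rose 3.44-fold at 7 d (1.78 ± 0.13, edgeR adjusted p = 1.74e-06) and 4.07-fold at 28 d (2.03 ± 0.13, edgeR adjusted p = 9.15e-06), its largest level being a 28 d heart. The times overlapped and differed by 0.24 ± 0.12, which did not pass, but did without MI 28 d replicate 1 (0.36) and without the libraries rich in Adipoq (0.38). In GRCm38 coordinates the 3 genes lie on chromosome 9 at chr9:5345442-5373034 for Casp12, chr9:5308849-5336791 for Casp4 and chr9:5298517-5307281 for Casp1.

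The bases upstream of Nlrp3 and Casp4 are shown because both genes are described targets of NF-kappaB, the transcription factor that primes inflammasome genes. Each stretch is 250 bases from RefSeq for GRCm38.p6, 5′ to 3′ (chr11:59541319-59541568, plus strand for Nlrp3 and chr9:5308599-5308848, plus strand for Casp4), with matches to the NF-kappaB consensus, and in Nlrp3 also to ACGTG on either strand, in capitals.
Nlrp3: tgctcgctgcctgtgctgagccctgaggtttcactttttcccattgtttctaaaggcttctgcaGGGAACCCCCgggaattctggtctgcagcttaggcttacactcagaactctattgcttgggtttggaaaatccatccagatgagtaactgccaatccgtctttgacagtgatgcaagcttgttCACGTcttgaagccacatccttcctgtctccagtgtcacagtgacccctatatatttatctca
Casp4: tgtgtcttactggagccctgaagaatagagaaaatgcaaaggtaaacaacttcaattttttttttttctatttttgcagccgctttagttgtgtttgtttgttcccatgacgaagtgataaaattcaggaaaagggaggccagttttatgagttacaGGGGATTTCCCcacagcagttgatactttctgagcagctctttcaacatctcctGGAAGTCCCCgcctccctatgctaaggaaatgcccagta
In Nlrp3 the NF-kappaB match lies 186 and the ACGTG match 63 bases upstream of the annotated start, and Casp4 has overlapping NF-kappaB matches from 93 bases and another 39 bases upstream. Both strands were searched, and each gene has a further annotated start that is not shown. Over the whole stretch of 300 bases, which runs on past the start, 6 of the 33 members with a sequence held an NF-kappaB match (Bcl2l1, Bbc3, Aifm1, Nlrp3 and Casp4 upstream, and Xiap past the start), against 9.55% of all genes. Aifm1 fell at 7 d and Xiap passed in no comparison. Over the same stretch the core of the interferon-stimulated response element was found for 2 members (Ripk1 upstream and Cflar past the start), against 3.99% of all genes.

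Summed over the 5 inflammasome genes, levels were 19, 18.4 and 20.6 CPM at 28 d, 55.9, 55.9 and 56.7 CPM at 7 d and 13, 15.4 and 15.5 CPM in sham hearts. The 4 inflammatory caspase and gasdermin genes summed to 69.8, 87.6 and 118 CPM at 28 d, 120.3, 111 and 121 CPM at 7 d and 29.3, 29.7 and 29.6 CPM in sham hearts. At 28 d both sums lay above sham in every heart, the first far below the 7 d hearts and the second level with them in replicate 3. Of the macrophage markers 8 of 8 rose at 7 d, 7 of 8 rose at 28 d and 8 of 8 were lower at 28 d than at 7 d. The same calls held for 39.0%, 29.5% and 26.1% of all tested genes. The inflammasome sum and the 3 necroptosis genes were lower at 28 d than at 7 d in every heart. In MI 28 d replicate 3 the caspase and gasdermin sum was level with the 7 d hearts. Casp12 gave 48.4 CPM of that sum, against 32.6 to 39.7 CPM at 7 d. There Casp1 (15.6 CPM) and Gsdmd (38.5 CPM) lay below every 7 d heart, and Casp4 (15.9 CPM) was within the 7 d range. MI 28 d replicate 3 had the highest macrophage sum of its group, the highest fibroblast sum and the lowest cardiomyocyte sum. It also had the highest Casp1, Casp4, Casp8, Gsdmd, Ripk3 and Mlkl of its group. Aim2 was lowest in that library (4.31, 4.09 and 3.53 CPM at 28 d). Nlrp3 stood no higher there than in replicate 1 (1.46, 2.05 and 1.45 CPM at 28 d). The part of cell composition in these levels was not tested.

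**Figure D4:**
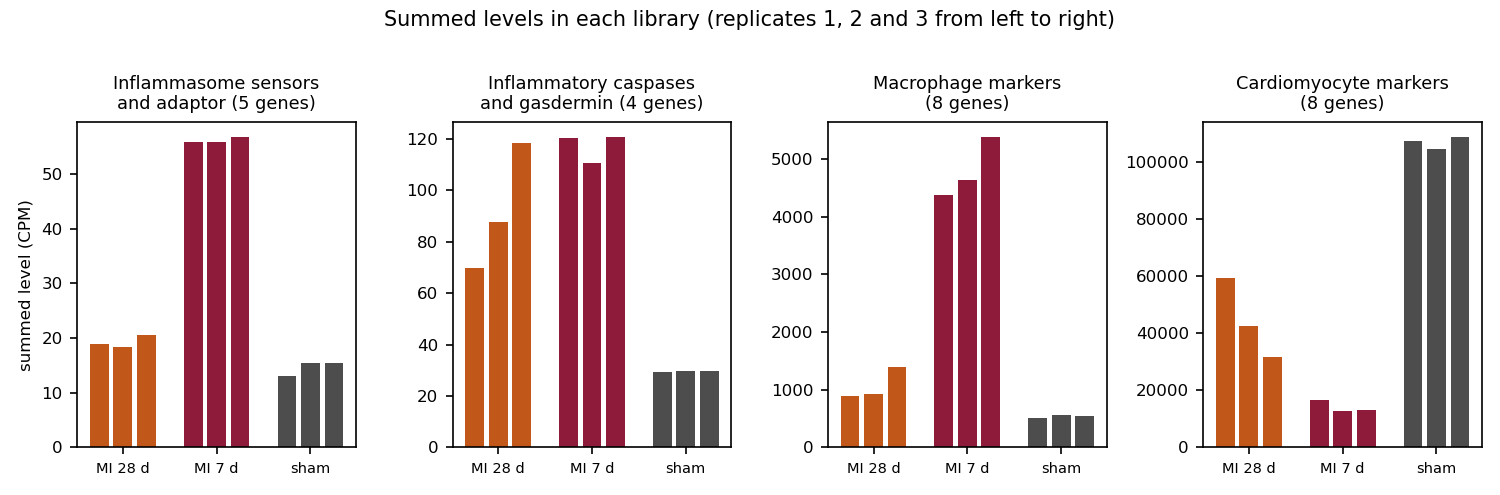
Summed level in CPM of the 5 inflammasome genes, the 4 inflammatory caspase and gasdermin genes, 8 macrophage markers and 8 cardiomyocyte markers in each library (bars, replicates 1 to 3 from left to right in each group). The inflammasome sum is 55.9 to 56.7 CPM at 7 d and at most 20.6 CPM elsewhere, while the caspase and gasdermin sum of MI 28 d replicate 3 (118 CPM) is level with the 7 d hearts. Casp12 gives 48.4 CPM of that sum.

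Of 83 further genes of these routes, 82 were in the table and 74 were tested. At 7 d 45 rose (60.8%) and 19 fell (25.7%), where 39.0% and 35.4% of all tested genes did. At 28 d against sham 31 rose (41.9%) and 11 fell (14.9%), with 29.5% and 25.6% of all tested genes. At 28 d against 7 d 17 were higher (23%) and 36 lower (48.6%), with 29.1% and 26.1% of all tested genes. Their median log2 fold changes were 0.83, 0.35 and -0.39 in these comparisons. Leaving out paralogues that can share reads, such as the Bcl2a1 genes, the leading rises at 7 d were Mefv, the gene of the inflammasome sensor pyrin (5.43 ± 0.42), Il1rn, the interleukin-1 receptor antagonist (4.11 ± 0.36), and Gzma, a granzyme of killer lymphocytes (4.10 ± 0.53). The leading falls were Hrk, a BH3-only gene with at most 13 counts per library (-4.11 ± 0.66), Cycs, which encodes cytochrome c (-2.66 ± 0.21), and Endog, a mitochondrial nuclease (-2.49 ± 0.15). Cycs had 319, 234 and 189 CPM at 28 d, 109, 72.6 and 84 CPM at 7 d and 558, 566 and 553 CPM in sham hearts, with sham hearts highest and 7 d hearts lowest. Its reads may be shared with pseudogene copies. At 28 d against sham the same 3 genes led the falls (Hrk -2.32, Endog -1.37, Cycs -1.18). The leading rises at 28 d were Bcl2l14, Gsdme, a gasdermin (2.99), and the cytokine gene Il18 (2.66).

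Bcl2l14, a BCL-2 family gene, rested on 8, 23 and 2 counts at 28 d, 15, 18 and 4 at 7 d and 0, 1 and 0 in sham hearts. Its summed level at 28 d was 23.3 times that in sham hearts, with a 95% counting interval of 3.9 to 946, which covers counting error only. Il18 had 1.73, 2.05 and 7.36 CPM at 28 d, 5.53, 5.3 and 6.16 CPM at 7 d and 0.436, 0.46 and 0.845 CPM in sham hearts, with MI 28 d replicate 3 above all 7 d hearts. Between the times Cycs (1.48), Endog (1.11) and Perp, a p53 target of cell junctions (1.11), led the genes higher at 28 d, and Mefv (-3.65), Il1rn (-3.27) and Gzma (-2.77) led those lower.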

How the data were processed

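Bulk RNA sequencing libraries were made from total RNA of mouse hearts with the KAPA RNA HyperPrep kit, per the labels' protocols. The values used are whole-number read counts per gene symbol as the authors deposited them, not normalized. Trim Galore, STAR, featureCounts and the mm10 build are named without versions in the submitters' processing notes. For annotation, strand setting and multi-mapping reads, the settings were not given in the sources used here. Groups and replicate numbers came from the sample titles.

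Counts were analysed with R 4.3.3 and edgeR 4.0.16. Genes were filtered with filterByExpr (minimum count 10, minimum total 15), scaled by TMM and fitted with 1 mean per group over all 9 libraries. Each contrast was tested with the two-sided quasi-likelihood test and Benjamini-Hochberg adjustment over all 14347 genes at 0.05. Standard errors were computed by dividing each log2 fold change's size by the root of its F statistic. The sham libraries were kept as replicates because their counts differed by more than sampling noise (chi-square over degrees of freedom 1.67 to 1.8). Pairs of infarct libraries had 19.1 to 29.8 at 7 d and 31.5 to 71.5 at 28 d. These values cannot show whether the sham libraries came from separate mice. The members, the role groups and the other lists were chosen with earlier results of these data known. All 38 members are named, with the value of every library for up to 4 members per role group with the largest differences from sham, for members below sham and for members that passed nowhere. Of the further pathway genes up to 3 per direction and comparison are named, leaving out paralogues that can share reads. Exon lengths and overlaps came from GENCODE M21 and upstream sequences from RefSeq GRCm38.p6. Fits were tested on simulated counts. Alternatives used DESeq2 1.42.0, limma 3.58.1 voom, other scalings, filters and thresholds, and left-out libraries.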

Additional observations from a re-analysis of the deposited data

Results flagged for a closer look

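The effect of infarction on 29 of the 38 genes differed between 28 d and 7 d in the direct test of the 2 times, which is the difference of their effects against the same sham hearts. By the same test, 29.1% of all tested genes were higher and 26.1% lower at 28 d than at 7 d. Of these 29 calls, 21 held under every alternative tried. Higher at 28 d than at 7 d, as edgeR log2 fold changes, were Bcl2 (0.85), Bcl2l1 (0.39), Bnip3 (0.82), Diablo (0.80), Aifm1 (0.89), Birc2 (0.36) and Fadd (0.31). Lower at 28 d than at 7 d in apoptosis were Bax (-0.74), Bak1 (-0.36), Bcl2l11 (-1.68), Bid (-1.03), Bbc3 (-1.04), Pmaip1 (-1.14), Apaf1 (-0.91), Tradd (-0.73), Casp8 (-1.11), Casp2 (-0.49) and Casp6 (-0.65). In necroptosis and pyroptosis the lower genes were Ripk1 (-0.87), Ripk3 (-1.45), Mlkl (-0.87), Nlrp3 (-1.64), Nlrp1b (-2.38), Nlrc4 (-1.16), Aim2 (-1.98), Pycard (-0.94), Casp1 (-1.01), Casp4 (-0.66) and Gsdmd (-0.61). Bcl2l11 and Bnip3 differed from sham in opposite directions at the 2 times.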

How the results depend on the processing

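Of the calls against sham, 32 of 34 at 7 d and 16 of 26 at 28 d held under every alternative tried, as did 21 of 29 between the times. No such count was made over all genes, so these counts are not set against a background. With only the compared libraries in the fit, Gsdmd (-0.66), Casp4 (-0.70), Fadd (0.27) and Birc2 (0.32) did not pass between the times. Bbc3 (0.47) did not pass at 28 d against sham in that setting. With the sham libraries summed to 1, an alternative chosen after seeing the data, 12 members rose at 28 d against 21 in the fit of all 9 libraries. The summed setting called 12% of all genes higher and 12.4% lower at 28 d against sham, for 29.5% and 25.6%. Leaving out each library in turn gave 29 to 30 members higher and 5 lower at 7 d, 16 to 21 higher and 4 to 5 lower at 28 d, and 6 to 8 higher and 20 to 23 lower between the times. Of all genes, 35.3% to 40.7% were then higher and 32.6% to 36.1% lower at 7 d. At 28 d these shares were 22.9% to 30% and 21.7% to 26.3%. Between the times they were 25.8% to 29.5% and 22.4% to 29.1%. Signs turned for members that passed neither way. With library totals alone, Xiap was 0.22 at 7 d, 0.19 at 28 d and -0.0227 between the times, Birc2 was 0.16 at 7 d and Casp9 0.16 at 28 d. This scaling shifts the median of all genes by 0.33 at 7 d and 0.25 at 28 d, and calls 51.6% higher and 25% lower at 7 d and 45.2% and 15.9% at 28 d. Without the libraries rich in Adipoq, which leaves 1 library at 28 d, assumed to vary like the others, Casp8 was -0.0684, Casp6 -0.016 and Pycard -0.21 at 28 d against sham. With 1 library left out, Casp8 ranged from -0.0463 to 0.32 and Casp6 from -0.0234 to 0.16 at 28 d, and Xiap from -0.0477 to 0.15 between the times. The causes were not tested. Same-numbered libraries did not all deviate together (r from -0.09 to 0.30), and differently numbered ones ranged from -0.58 to 0.45. With 3 libraries per group these values cannot show whether libraries were paired by replicate number. With it as a replicate block 29 members rose and 5 fell at 7 d, 20 rose and 5 fell at 28 d, and 7 were higher and 22 lower between the times. Of all genes, 38.7% rose and 35.1% fell at 7 d and 28.5% and 25.1% at 28 d. Between the times 28.7% were higher and 25.6% lower. Under the block Mlkl passed at 28 d against sham (0.47), and Bad (0.30) and Bbc3 (0.47) did not. Sham hearts held few reads of Pmaip1 (1 to 7 counts), Nlrp1b (8 to 18), Nlrc4 (11 to 13) and Nlrp3 (13 to 14). Bid had 17 to 29 counts and Aim2 26 to 28 there. At 28 d Nlrc4 had 12 to 30 and Nlrp3 22 to 33 counts, and at 7 d 50 to 78 and 96 to 115.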
